A study of Mus musculus with 55 samples.

Results

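The splicing machinery of mouse oocytes was followed through 39 genes of 3 protein families, out of 33924 genes in the main count table. Members were every gene whose symbol starts with Hnrn, Hnrp, Srsf or Sf3, leaving out the 1 whose name ends in -ps. They comprise 20 genes of heterogeneous nuclear ribonucleoproteins (hnRNPs), 11 genes of serine- and arginine-rich (SR) proteins and 8 genes of the splicing factor complexes SF3A and SF3B. All 39 were matched by identical exon coordinates in a second table, which held the Trim-Away libraries. Membership follows names and not measured values, though the families were chosen with earlier results of these data known.

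The study asked what DHX36 (also called RHAU), a helicase that unwinds G-quadruplexes, and these folds of guanine-rich RNA do to transcripts in oocytes. Polyadenylated RNA was sequenced from cells labelled as oocytes from ovary. The labels' protocol names Dhx36fl/fl;SKO mice and does not expand SKO, the promoter behind the deletion or the age of the animals. The labels do not say whether libraries of a group came from separate animals, so p-values measure the spread between these libraries, which may be technical.

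Growing oocytes gave 3 libraries labelled Dhx36 sko and 3 labelled control. A second experiment set rhau_sko against c, with and without DRB, which blocks CDK9 and so the elongation of transcripts. It is represented here by 1 rhau_sko library without DRB, 2 rhau_sko libraries with DRB, 1 c library with DRB and 2 c libraries without DRB, since 1 rhau_sko library and 1 c library with DRB held under 200000 counts each and were left out. The stage of these oocytes and the length of the DRB treatment are not in the labels. Germinal vesicle (GV) oocytes, which are arrested in meiotic prophase with their nucleus intact, gave 3 libraries labelled GV_cPDS_12h and 3 labelled GV_C. The cPDS of the label is carboxypyridostatin, a ligand of RNA G-quadruplexes, given with a time of 12 h. The labels give no time for GV_C, so cPDS and the 12 h cannot be told apart. Trim-Away, in which the ubiquitin ligase TRIM21 directs a protein bound by an antibody to degradation, gave 3 libraries labelled Dhx36, 3 h and Trim21, and 3 labelled Dhx36, 3 h and control.

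The 24 libraries held between 7452742 and 65444652 counts. Dhx36 itself had 2.83, 1.95 and 1.73 normalised CPM (counts per 1000000 after TMM scaling of library sizes) in growing sko libraries, against 7.34, 8.06 and 10.9 in controls, a log2 fold change of -2.01 (SE 0.24, adjusted p = 4.24e-06). Its log2 fold change was -2.72 (SE 0.17, adjusted p = 2.40e-06) in rhau_sko, 0.73 (SE 0.10, adjusted p = 1.82e-05) with cPDS and -1.99 (SE 0.18, adjusted p = 1.43e-05) with Trim21. These are RNA values, and DHX36 protein was not measured in them. Trim-Away acts on a protein, and the cause of the lower Dhx36 RNA with Trim21 was not tested. All 12 oocyte markers, among them Zp3 and Gdf9, were detected in every library. The 14 granulosa and cumulus markers, which mark the somatic cells around the oocyte, summed to 0.00852 to 0.00890% of counts in growing sko libraries and 0.00235 to 0.00266% in their controls. They summed to 0.0112 to 0.0151% in the 3 rhau_sko libraries used and 0.00663 to 0.00794% in the 3 c libraries used. With Trim21 they summed to 0.00690 to 0.00759% and in its controls to 0.00475 to 0.00489%. With cPDS they summed to 0.00906 to 0.0103% and in GV_C to 0.0112 to 0.0115%. Among the granulosa and cumulus markers tested, 4 of 7 were called higher and 0 lower in growing sko, 3 of 7 higher and 0 lower in rhau_sko, 1 of 5 higher and 0 lower with Trim21, and 2 higher and 3 lower of 10 with cPDS. Over all genes tested, 28.5% were called higher and 25.2% lower in growing sko, and 19.9% higher and 17.9% lower in rhau_sko. The shares were 6.26% higher and 5.23% lower with Trim21, and 23.4% higher and 27.4% lower with cPDS. In every library 4 or fewer of the 14 granulosa and cumulus markers were at 0, except in Trim libraries, where up to 6 were. The 12 immune, endothelial and blood markers summed to 0.00168 to 0.00174% with cPDS and 0.00575 to 0.00610% in GV_C, with 0 higher and 1 lower of 4 tested. They summed to 0.00246 to 0.00335% in the rhau_sko libraries used and 0.00417 to 0.00496% in the c libraries used, with 1 higher and 3 lower of 5 tested. In the growing and Trim experiments their ranges overlapped between the groups. The 9 theca and stroma markers summed to at most 9.81e-04% in any library used. They summed to 4.96e-04 to 8.83e-04% in growing sko and 2.63e-04 to 3.23e-04% in controls, with 2 higher and 0 lower of 3 tested. The sums were 6.19e-04 to 9.81e-04% in rhau_sko and 3.22e-04 to 4.86e-04% in c, with 1 higher and 0 lower of 3 tested. With cPDS 1 was higher and 0 lower of 4 tested, with Trim21 0 of 3 were called, and in both the ranges overlapped. With cPDS 6 of the 12 oocyte markers were called higher and 4 lower, 2 of them under -1 on the log2 scale, and their sum was 3.18 to 3.53% of counts with cPDS and 3.01 to 3.28% in GV_C. The part of other cells in the results on the splicing genes was not tested. Fewer cells of a type and less RNA per cell cannot be told apart in these bulk counts.

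The SF3A and SF3B complexes are parts of the U2 small nuclear ribonucleoprotein (snRNP), which recognises the branch site near the end of an intron. SR proteins bind exonic enhancers and recruit the spliceosome, and many hnRNPs bind nascent RNA and often oppose SR proteins at splice sites. Several hnRNPs also act on the stability, localisation and translation of messenger RNA. Growing oocytes transcribe actively and store mRNA, whereas fully grown oocytes become transcriptionally silent and live on the stored pool.

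Levels of different genes were compared per exon length, as TPM (length-corrected transcripts per 1000000) from the deposited counts. In growing control oocytes the highest member was Hnrnpk, a KH-domain protein that binds C-rich RNA, at 572 ± 82.4 TPM (SD, n = 3). Next came Hnrnpc, which binds uridine tracts of nascent RNA, at 534 ± 14.97 TPM, and these 2 did not differ beyond their spread. Hnrnpa1, the best known splicing repressor of the family, followed at 334 ± 4.55 TPM, and Sf3b1, the large SF3B subunit at the branch site, at 291 ± 18.2 TPM. In GV_C oocytes the order began with Hnrnpc at 415 ± 4.16 TPM, then Sf3b5, the smallest SF3B subunit, at 352 ± 24.1 TPM, and Hnrnpk at 329 ± 26.04 TPM. Sf3b5 and Hnrnpk lay within their spread of each other there. Sf3b5 had 19.6 ± 4.06 TPM in growing controls. The difference between GV_C and growing controls was not tested, since stage and experiment cannot be told apart. At the low end, Srsf12, an SR protein related to Srsf10, had 0.143 ± 0.108 TPM in GV_C and passed the filter on low counts in the cPDS comparison only.

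The 20 hnRNP genes together took 0.0639% ± 0.00310 of summed TPM in cPDS oocytes and 0.135% ± 0.00275 in GV_C oocytes (SD, n = 3 each). The 8 SF3 genes took 0.0659% ± 0.00425 with cPDS and 0.0824% ± 0.00303 in GV_C, and the 11 SR genes 0.0199% ± 0.000884 with cPDS and 0.0231% ± 0.000834 in GV_C. The libraries of the GV groups did not overlap in any family. In growing oocytes the hnRNP share was 0.246% ± 0.00852 in sko and 0.187% ± 0.00832 in control libraries, without overlap, while the SR and SF3 shares overlapped. In the DRB experiment the hnRNP share was 0.146 to 0.161% in the 3 rhau_sko libraries and 0.122 to 0.128% in the 3 c libraries. In the Trim experiment it was 0.115 to 0.125% with Trim21 and 0.108 to 0.119% in controls, and those ranges overlapped. A share of summed TPM moves with every other gene in the library, so these sums carry no test.

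**Figure D1:**
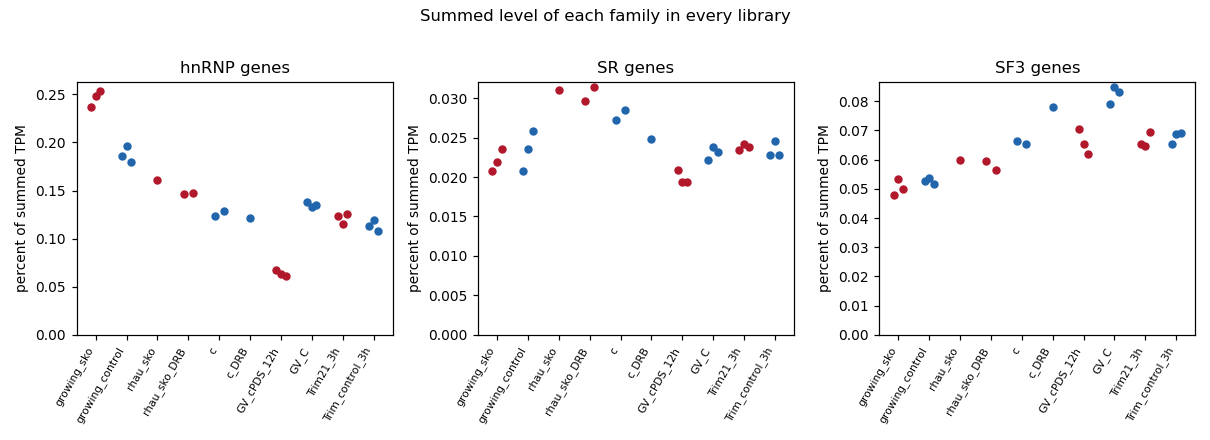
Summed level of the hnRNP, SR and SF3 genes (percent of summed TPM, vertical axis) in each of the 24 libraries, by group; red points are sko, cPDS or Trim21 libraries and blue points their controls. The hnRNP share of cPDS oocytes (0.0614 to 0.0674%) lies below that of every other library.

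Gene structure, which the choice of members did not use, varied widely. In the deposited annotation (build mm9) Hnrnpa0 (chromosome 13, 58227240 to 58229917, minus strand) and Sf3b5 (chromosome 10, 12728256 to 12728988, plus strand) had exons over 100% of their span and so no intron. Exons covered 92.7% of the span of Srsf2 and 89.5% of that of Srsf1, but 9.28% of that of Hnrnpc. For 13 members some exon bases were shared with another gene, above all Hnrnph3 (75.5%, with Rufy2 on the opposite strand), Srsf4 (43.3%, opposite strand), Hnrnpab (26.9%, opposite strand), Hnrnpm (24.8%, same strand) and Sf3a2 (16.1%, opposite strand). The strand setting of the counting is not given in the sources used here, so values of these 5 are uncertain. The treatment of reads that fit several places is not given either, and hnRNP A1 and its relatives have many near-identical processed copies in the genome.

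G-quadruplexes form from runs of guanines, and the 250 bases before the gene start were searched for 4 runs of at least 3 G with gaps of 1 to 7 bases of any kind, on both strands. RefSeq promoter sequences (build GRCm38.p6) matched 35 of the 39 genes, and 9 of them (25.7%) had the motif in at least 1 promoter, against 18.5% of all 27025 genes with a promoter in the table. On the strand of the gene it lay in 6 members (Srsf4, Srsf7, Srsf10, Hnrnpd, Hnrnpf and Hnrnph1), and on the other strand in 4 (Sf3b1, Hnrnpa0, Hnrnpul1 and Hnrnpf). Shown are the promoters of Hnrnpa0, which rose most in both sko experiments, of Srsf2, which rose most with cPDS, and of Hnrnpa1 and Hnrnpk, both highly expressed and strongly lower with cPDS. Capitals mark the motif on the other strand, where runs of C stand for runs of G. The motif was found in the promoter of Hnrnpa0 and in none of the other 3, with GC contents of 81.2% for Hnrnpa0, 46.0% for Hnrnpa1, 69.2% for Hnrnpk and 69.6% for Srsf2. A match is a description of these bases and not of a structure. They lie before the gene start, and the motif was not searched for in the members' RNA.
Hnrnpa0, chr13:58128557-58128806, minus strand: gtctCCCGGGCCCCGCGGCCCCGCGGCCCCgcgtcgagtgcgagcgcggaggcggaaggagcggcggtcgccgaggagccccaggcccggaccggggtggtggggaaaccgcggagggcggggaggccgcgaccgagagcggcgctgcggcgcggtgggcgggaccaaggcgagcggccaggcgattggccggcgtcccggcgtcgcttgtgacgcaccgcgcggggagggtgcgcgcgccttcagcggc
Hnrnpa1, chr15:103240147-103240396, plus strand: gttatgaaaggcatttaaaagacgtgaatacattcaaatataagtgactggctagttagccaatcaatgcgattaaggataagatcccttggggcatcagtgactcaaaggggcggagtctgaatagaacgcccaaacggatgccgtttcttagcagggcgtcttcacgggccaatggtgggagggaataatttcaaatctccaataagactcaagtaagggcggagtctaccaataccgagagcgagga
Hnrnpk, chr13:58402118-58402367, minus strand: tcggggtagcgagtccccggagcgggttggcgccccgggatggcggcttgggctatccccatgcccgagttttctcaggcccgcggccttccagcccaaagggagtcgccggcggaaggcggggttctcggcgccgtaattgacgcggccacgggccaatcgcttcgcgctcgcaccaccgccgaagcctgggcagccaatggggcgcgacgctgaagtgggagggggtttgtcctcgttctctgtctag
Srsf2, chr11:116853095-116853344, minus strand: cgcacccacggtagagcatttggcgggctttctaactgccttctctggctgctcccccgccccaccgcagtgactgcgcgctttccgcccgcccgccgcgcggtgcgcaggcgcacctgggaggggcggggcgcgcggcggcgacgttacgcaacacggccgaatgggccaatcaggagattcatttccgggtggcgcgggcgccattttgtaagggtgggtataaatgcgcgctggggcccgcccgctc

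In GV oocytes with cPDS most splicing genes had lower normalised counts. These are counts of polyadenylated RNA relative to each library, so amounts per oocyte and changes of polyadenylation were not measured. Of the 39 members 25 fell and 3 rose with cPDS at an adjusted p under 0.05 (edgeR's quasi-likelihood test, Benjamini-Hochberg over all genes tested). Over all 16115 genes tested 50.8% were called, 27.4% lower and 23.4% higher. The members' share was 71.8%. The median log2 fold change was -0.44 over the members and 0.01 over all genes. Of the members, 12 fell to a log2 fold change of -1 or less and 1 rose to 1 or more. Of all 16115 genes tested, 2047 were called with a log2 fold change of -1 or less and 258 with one of 1 or more. By family, 13 hnRNP genes fell and 1 rose, 8 SR genes fell and 1 rose, and 4 SF3 genes fell and 1 rose.

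Among the SF3 genes, Sf3a3, a subunit of SF3A, had 93.5, 80.6 and 72.5 normalised CPM in the cPDS libraries, against 234, 249 and 244 in the GV_C libraries, a 2.95-fold lower level with cPDS (log2 fold change -1.56, SE 0.09, adjusted p = 7.85e-10). Sf3b1 averaged 235 ± 10.3 normalised CPM with cPDS and 406 ± 16.0 in GV_C as mean ± SD of 3 libraries each (log2 fold change -0.79, SE 0.06, adjusted p = 6.28e-08). The groups did not overlap in either gene. Sf3b3 (log2 fold change -0.86) and Sf3b2 (-0.58), both SF3B subunits, fell as well. Sf3a1, the SF3A subunit with SURP domains, did not pass the test at 50.6 ± 0.121 normalised CPM with cPDS and 52.8 ± 1.75 in GV_C (log2 fold change -0.06, adjusted p = 0.53). Sf3b5 rose, with 146, 138 and 129.6 normalised CPM in the cPDS libraries, against 101, 117 and 113 in the GV_C libraries (log2 fold change 0.32, SE 0.08, adjusted p = 0.00253). Sf3a2 and Sf3b4, subunits of SF3A and SF3B, did not pass (log2 fold changes 0.18 and 0.41).

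The SR gene that fell furthest was Srsf5, with 13.1, 8.14 and 8.59 normalised CPM in the cPDS libraries, against 33.6, 49.9 and 39.1 in the GV_C libraries (log2 fold change -2.04, SE 0.17, adjusted p = 9.57e-08). Srsf4, a close relative of Srsf5 and Srsf6, fell by 1.89 on the log2 scale, and 43.3% of its exon bases are shared. Smaller decreases were called for Srsf9 (-0.65), Srsf3, the smallest SR protein (-0.53), Srsf6 (-0.42), Srsf1, the founding SR protein (-0.41), Srsf11 (-0.25) and Srsf10, which represses splicing when dephosphorylated (-0.21). Srsf10 lost its call without GV_C replicate 3 (adjusted p = 0.0860) or cPDS replicate 2 (0.121). Srsf2, also known as SC35 and found in nuclear speckles, went the other way, with 52.2, 50.8 and 45.3 normalised CPM in the cPDS libraries, against 21.7, 19.8 and 23.3 in the GV_C libraries. It was 2.28-fold higher with cPDS (log2 fold change 1.19, SE 0.09, adjusted p = 4.55e-08), and each cPDS library lay above each GV_C library. Srsf7, an SR protein with a zinc knuckle, averaged 63.2 ± 5.36 normalised CPM with cPDS and 61.5 ± 4.28 in GV_C and did not pass the test (log2 fold change 0.04, SE 0.09, adjusted p = 0.741). Srsf12 did not pass either (log2 fold change 0.62, SE 0.63).

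The largest decreases were among the hnRNP genes. Hnrnpa1 had 9.37, 9.67 and 6.96 normalised CPM in the cPDS libraries, against 125, 123 and 125 in the GV_C libraries. Its level was 14.5-fold lower with cPDS (log2 fold change -3.86, SE 0.11, adjusted p = 1.68e-12). Hnrnpk had 42.0, 41.2 and 37.8 normalised CPM in the cPDS libraries, against 449, 392 and 419.8 in the GV_C libraries, 10.4-fold lower with cPDS (log2 fold change -3.38, SE 0.08, adjusted p = 5.10e-13). In both genes the highest cPDS library lay far below the lowest GV_C library. Hnrnph2 fell by 4.43-fold to 6.06 ± 0.886 normalised CPM with cPDS, against 26.5 ± 1.501 in GV_C (adjusted p = 9.66e-10), and its relative Hnrnph1 by 2.32-fold (adjusted p = 1.45e-08). Both belong, with Hnrnpf, to the hnRNP F and H proteins that bind runs of G. Hnrnpf itself fell less, to 48.2, 55.5 and 48.3 normalised CPM with cPDS, against 79.5, 55.0 and 71.5 in GV_C, and the groups overlapped (log2 fold change -0.44, SE 0.11, adjusted p = 0.00445). Hnrnph3 fell by 3.58 on the log2 scale, though most of its exon bases are shared with Rufy2.

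Further hnRNP genes that fell were Hnrnpul2, a relative of the scaffold attachment protein hnRNP U (log2 fold change -1.88), Hnrnpr, a relative of Syncrip (-1.68), and Hnrnpl, which binds CA repeats (-1.38). Hnrnpm (-1.17), Hnrnpab (-0.96), Hnrnpa2b1, a relative of hnRNP A1 that also binds trafficked mRNA (-0.69), and Hnrnpu (-0.42) followed. Hnrnpc, the highest member in GV_C, had 486, 434 and 445 normalised CPM in the cPDS libraries, against 498, 516 and 497 in the GV_C libraries and did not pass the test although the groups did not overlap (log2 fold change -0.15, SE 0.06, adjusted p = 0.0647). It passed with library size alone (adjusted p = 0.0289) and without cPDS replicate 1 (0.0252). Hnrnpd, also known as AUF1 and a binder of AU-rich elements, averaged 33.8 ± 5.26 normalised CPM with cPDS and 34.5 ± 2.44 in GV_C (log2 fold change -0.03, SE 0.11, adjusted p = 0.844). Its paralog Hnrpdl (log2 fold change -0.07), Hnrnpa3 (0.21), Hnrnpul1 (-0.24) and Hnrpll, a paralog of Hnrnpl (0.05), did not pass either. Hnrnpa0 rose 1.35-fold, with 17.7, 16.8 and 19.8 normalised CPM in the cPDS libraries, against 12.4, 15.04 and 12.8 in the GV_C libraries (log2 fold change 0.43, SE 0.11, adjusted p = 0.00453).

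**Figure D2:**
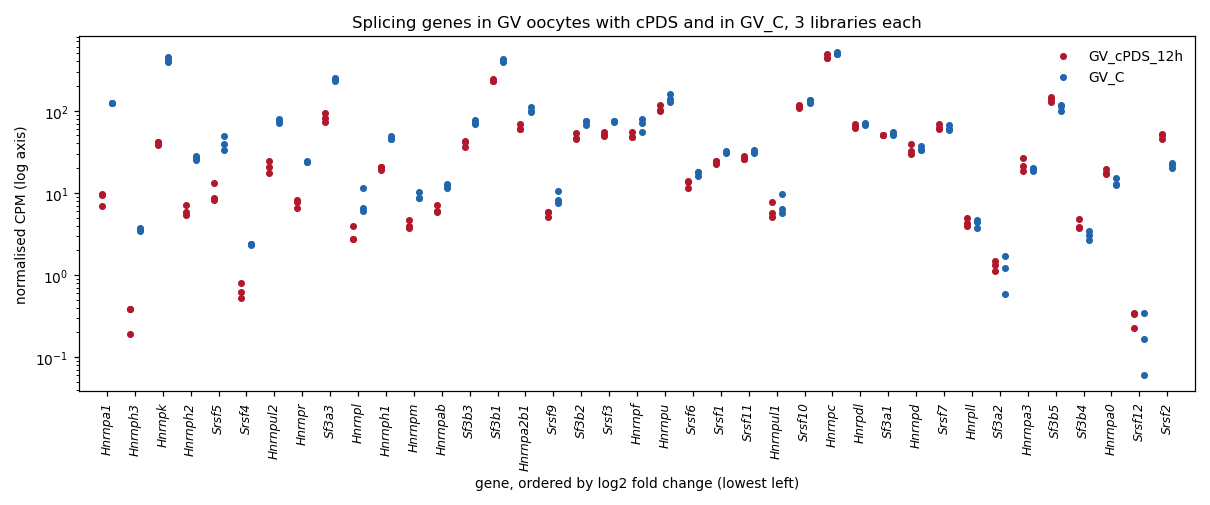
Normalised CPM (log axis) of the 39 splicing genes in the 3 GV_cPDS_12h libraries (red) and the 3 GV_C libraries (blue), ordered from the lowest log2 fold change at the left. Hnrnpa1, Hnrnph3 and Hnrnpk stand at the left end, and Srsf2 at the right end.

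The 3 members that rose with cPDS were the 2 without an intron, Hnrnpa0 and Sf3b5, and Srsf2, whose exons fill most of its span. This was noticed after the values were seen and was not tested on the members. Srsf1, with a similarly small intron share, fell. Over all genes tested with cPDS, 15.2% of 1364 single-exon genes were higher and 15.03% lower, against 24.2% higher and 28.6% lower of 14720 genes with several exons. The 9 members with the G-run motif in a promoter had a median log2 fold change of -0.24 with cPDS. They ranged from -1.89 for Srsf4 to 0.43 for Hnrnpa0. Members with a promoter sequence and no motif had a median of -0.61, and ranged from -3.86 for Hnrnpa1 to 1.19 for Srsf2. The difference was not tested.

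Other parts of the machinery were counted from the same gene lists in every comparison. The background over all genes tested with cPDS was 27.4% lower and 23.4% higher. Of 22 tested genes of the U1 and U2 snRNPs and U2AF, 16 fell with cPDS and 2 rose. U2af1, the small U2AF subunit that reads the 3' splice site, fell by 3.46 on the log2 scale (adjusted p = 1.13e-11), and Rbm17, a U2-associated factor, by 3.17. Of 34 genes of the tri-snRNP, the Prp19 complex and the step factors, 18 fell and 5 rose. Syf2 fell by 3.01 and Prpf6, a bridge within the tri-snRNP, by 2.27 on the log2 scale. The counts were 12 lower and 5 higher of 23 SR-related regulators, 12 lower and 2 higher of 19 hnRNPs under other symbols, and 7 lower and 4 higher of 14 Sm and LSm core genes. They were 5 lower and 1 higher of 10 genes of the minor spliceosome. SR protein kinases and import factors counted 3 lower and 5 higher of 14, and tissue-type splicing regulators 4 lower and 7 higher of 24.

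In Dhx36 sko growing oocytes splicing genes moved in both directions. Of 38 tested members 7 rose and 10 fell in sko, and the median log2 fold change was -0.08, against 0.02 over all genes. Over all 14081 genes tested 53.7% were called, 28.5% higher and 25.2% lower, so the members' share of 44.7% was not above the background. The hnRNP genes counted 3 higher and 2 lower of 20, the SR genes 3 higher and 5 lower of 10, and the SF3 genes 1 higher and 3 lower of 8. Scaled by library size alone, which moved the median of all genes to 0.21, 11 members were higher and 5 lower, and with a count minimum of 50 10 were higher and 8 lower.

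Sf3b2, whose product contacts the RNA near the branch site, had 27.3, 29.4 and 30.2 normalised CPM in the sko libraries, against 55.5, 65.0 and 63.6 in the control libraries. It was 2.11-fold lower in sko (log2 fold change -1.08, SE 0.13, adjusted p = 3.16e-06). Sf3b4 was higher, at 22.1 ± 0.144 normalised CPM in sko and 10.1 ± 0.842 in controls (log2 fold change 1.13, SE 0.14, adjusted p = 6.68e-06). The groups did not overlap in either gene. Sf3b5 (log2 fold change -0.53, adjusted p = 0.0483) and Sf3b3 (-0.30, adjusted p = 0.0414) fell by small amounts. Sf3b3 lost its call without control replicate 2, sko replicate 5 or sko replicate 6 (adjusted p = 0.139, 0.125 and 0.133), with a higher count minimum or no filter, and under library size alone. Sf3a3 (-0.29), Sf3b1 (-0.29), Sf3a1 (-0.32) and Sf3a2 (1.02, with an SE of 0.79) did not pass the test.

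Srsf1 had 9.02, 11.7 and 11.3 normalised CPM in the sko libraries, against 19.3, 24.9 and 30.3 in the control libraries, and was 2.33-fold lower in sko (log2 fold change -1.22, SE 0.17, adjusted p = 2.64e-05). Srsf2 had 38.6, 44.7 and 46.7 normalised CPM in the sko libraries, against 54.1, 72.8 and 90.5 in the control libraries (log2 fold change -0.74, SE 0.16, adjusted p = 0.00119). The control libraries of both genes varied more than the sko libraries, yet all lay above them. Srsf3 (-0.68), Srsf7 (-0.56) and Srsf5 (-0.36) fell too. Srsf5 lost its call with library size alone (adjusted p = 0.299) and without any 1 of control replicate 2, sko replicate 4 or sko replicate 5 (adjusted p = 0.0830, 0.111 and 0.0698). Srsf6 rose, with 30.3, 32.3 and 30.9 normalised CPM in the sko libraries, against 14.3, 17.3 and 14.3 in the control libraries (log2 fold change 1.03, SE 0.14, adjusted p = 1.18e-05). Srsf11 (0.69) and Srsf9 (0.61) rose as well, and Srsf4 (-0.23) and Srsf10 (0.04) did not pass the test.

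Hnrnpa0, an A/B-type hnRNP that binds AU-rich RNA, rose far more than any other member. It had 115, 166 and 171 normalised CPM in the sko libraries, against 15.3, 13.4 and 18.1 in the control libraries, 9.65-fold higher in sko (log2 fold change 3.27, SE 0.17, adjusted p = 5.57e-10). Hnrnpab (log2 fold change 0.79) and Hnrnpr (0.64) rose less, while Hnrnph3 (-0.74, shared exon bases) and Hnrnph1 fell. Hnrnph1 averaged 34.2 ± 2.099 normalised CPM in sko and 46.0 ± 3.17 in controls (log2 fold change -0.43, SE 0.12, adjusted p = 0.00823), and lost its call when scaled by library size alone (adjusted p = 0.131). Hnrnpk had 1026, 985 and 980.2 normalised CPM in the sko libraries, against 899, 886 and 639.7 in the control libraries, without overlap but short of the threshold (log2 fold change 0.30, SE 0.14, adjusted p = 0.0753). It passed without control replicate 1 (adjusted p = 0.0281), with a count minimum of 50 (0.0435) and with library size alone (0.00212). The most abundant of the others, Hnrnpc (-0.18), Hnrnpf (0.07), Hnrnpa1 (0.16), Hnrnpa2b1 (-0.12) and Hnrnpu (-0.13), did not pass. The remaining 9 hnRNP genes lay between -0.76 for Hnrpll and 0.40 for Hnrnpa3, none of them called.

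Genes of the other lists gave 3 higher and 9 lower of 22 for the U1 and U2 snRNPs and U2AF, 6 higher and 11 lower of 33 for the tri-snRNP, Prp19 complex and step factors, and 7 higher and 5 lower of 23 for SR-related regulators. The shares called were 54.55%, 51.52% and 52.17%, against 53.73% over all genes tested (28.5% higher and 25.2% lower). The genes named below were among the 2 called of smallest p in their list. Tra2a, an SR-like splicing activator, rose by 3.27 on the log2 scale in sko (adjusted p = 2.87e-10), U2af2, the large U2AF subunit, by 3.05 and Dhx15, the helicase that releases spliceosomes, by 2.44. The hnRNPs under other symbols gave 5 higher and 3 lower of 18, led by Syncrip (2.53), and the tissue-type regulators 8 higher and 3 lower of 21. SR protein kinases and import factors counted 4 higher and 2 lower of 13, the Sm and LSm core 1 higher and 4 lower of 13, and the minor spliceosome 1 higher and 4 lower of 10.

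In the DRB experiment most called members were higher in rhau_sko. Of 38 tested members 14 rose and 2 fell, with DRB as a covariate, and the median log2 fold change was 0.26, against -0.01 over all genes. Over all 15923 genes tested 37.8% were called, 19.9% higher and 17.9% lower, and 42.1% of the members. The hnRNP genes gave 11 higher and 0 lower of 20, the SR genes 3 higher and 0 lower of 10, and the SF3 genes 0 higher and 2 lower of 8. The oocyte markers summed to 1.67 to 1.71% of counts in the rhau_sko libraries and 2.15 to 2.43% in the c libraries, and 7 of the 12 were called lower and 1 higher; their part in the splicing genes' changes was not tested. Without the DRB-free rhau_sko library (replicate 5) 10 members were called, and with the 2 shallow libraries included 8 were called. Values below are given in the order rhau_sko without DRB, then the 2 rhau_sko libraries with DRB, and for c the 2 libraries without DRB, then the 1 with DRB.

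The SF3 genes that fell were Sf3b2 and Sf3b5. Sf3b2 had 59.7, 64.2 and 48.9 normalised CPM in the rhau_sko libraries, against 88.5, 80.7 and 95.1 in the c libraries (log2 fold change -0.63, SE 0.14, adjusted p = 0.00484). Sf3b5 had 58.4, 72.7 and 68.5 normalised CPM in the rhau_sko libraries, against 80.1, 81.7 and 115 in the c libraries. Its log2 fold change was -0.59 (SE 0.11, adjusted p = 0.00245). The groups did not overlap in either gene. Sf3b2 lost its call without the c library with DRB (adjusted p = 0.0895). Sf3a1 (0.11), Sf3a3 (0.03), Sf3b1 (-0.08), Sf3b3 (-0.11), Sf3b4 (0.32) and Sf3a2 (0.49) did not pass the test.

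Srsf9 rose most among the SR genes, with 31.6, 50.8 and 40.4 normalised CPM in the rhau_sko libraries, against 21.2, 16.9 and 21.4 in the c libraries (log2 fold change 0.91, SE 0.17, adjusted p = 0.00188). Srsf6 (log2 fold change 0.69, SE 0.21, adjusted p = 0.0245) and Srsf2 (log2 fold change 0.52, SE 0.13, adjusted p = 0.00755) rose too. The libraries overlapped for Srsf6 and not for Srsf2, which had 70.6, 55.8 and 54.8 normalised CPM in the rhau_sko libraries, against 43.2, 45.2 and 42.9 in the c libraries. Without rhau_sko replicate 5 Srsf2 had an adjusted p of 0.128. Srsf1 had 30.3, 23.6 and 28.5 normalised CPM in the rhau_sko libraries, against 29.6, 39.7 and 31.7 in the c libraries. It did not pass the test (log2 fold change -0.24, SE 0.16, adjusted p = 0.271). Srsf3 (-0.30), Srsf5 (0.17), Srsf7 (-0.36), Srsf10 (0.28), Srsf11 (0.14) and Srsf4 (0.25) did not pass either.

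Hnrnpa0 again led the hnRNP genes, with 163, 175 and 161 normalised CPM in the rhau_sko libraries, against 58.3, 49.5 and 37.0 in the c libraries, a 3.69-fold higher level in rhau_sko (log2 fold change 1.88, SE 0.15, adjusted p = 1.01e-05). Hnrnpd had 132, 142 and 132 normalised CPM in the rhau_sko libraries, against 66.9, 71.8 and 70.8 in the c libraries (log2 fold change 0.94, SE 0.11, adjusted p = 1.02e-04). Its paralog Hnrpdl had 127, 122 and 130.3 normalised CPM in the rhau_sko libraries, against 70.6, 81.7 and 77.0 in the c libraries (log2 fold change 0.73, SE 0.11, adjusted p = 6.51e-04). In all 3 genes every rhau_sko library lay above every c library, whether it carried DRB or not. Hnrnpa3 (0.77), Hnrnpr (0.67), Hnrnpab (0.58), Hnrnpu (0.56), Hnrnpul2 (0.48), Hnrnph2 (0.40), Hnrnpf (0.40) and Hnrnpa1 (0.38) rose too. Hnrnpf lost its call when any 1 library but rhau_sko replicate 7 was left out (adjusted p = 0.0885 to 0.293) and with library size alone (0.0551). Hnrnpa1 lost it without c replicate 1, the c library with DRB or rhau_sko replicate 5 (0.0729, 0.119 and 0.0781). Hnrnpab lost it without rhau_sko replicate 5 (0.0710). Hnrnpc (-0.12), Hnrnpk (-0.05), Hnrnpa2b1 (0.20) and Hnrnph1 (0.34) did not pass the test, nor did the other 5, from -0.91 for Hnrnph3 to 0.32 for Hnrnpl.

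In the other lists Tra2a rose by 2.88 on the log2 scale in rhau_sko, Acin1, part of the apoptosis and splicing-associated complex, by 2.31, Dhx15 by 2.24 and U2af2 by 2.02. Crnkl1, a Prp19-related factor, fell by 1.74. The background over all genes tested was 37.8% called, 19.9% higher and 17.9% lower. The hnRNPs under other symbols gave 8 higher and 0 lower of 19, SR-related regulators 6 higher and 2 lower of 23, and the U1 and U2 snRNPs and U2AF 5 higher and 4 lower of 22. The tri-snRNP, Prp19 complex and step factors gave 3 higher and 6 lower of 34. SR protein kinases and import factors counted 5 higher and 0 lower of 13, the Sm and LSm core 1 higher and 2 lower of 14, the minor spliceosome 1 higher and 1 lower of 10, and the tissue-type regulators 6 higher and 3 lower of 25.

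Whether the sko change differed between the 2 experiments was tested in 1 model of their 12 libraries, of which none is in both. Of 38 tested members 7 differed, 1 with a higher change in the growing experiment and 6 with a lower one. Over all 16655 genes tested 13.2% were called, 7.93% higher and 5.25% lower. The prevailing direction over all genes depended on the setting. With DESeq2's size factors 1079 genes were higher and 1255 lower, and with a count minimum of 50 they were 1114 and 1334. Members stayed at 1 higher and 6 lower under both. The differences below are log2 changes of growing oocytes minus those of the DRB experiment. Hnrnpa0 differed by 1.41 (SE 0.24, adjusted p = 6.19e-04), although it rose in both. Srsf2, which fell in growing sko and rose in rhau_sko, differed by -1.24 (SE 0.22, adjusted p = 0.00101). Srsf1 differed by -0.96, Hnrnpd by -0.89, Hnrpdl by -0.75, Hnrnph1 by -0.74 and Hnrnpu by -0.67. Without rhau_sko replicate 5 the calls of Hnrnpd, Hnrnpu, Srsf1 and Hnrpdl were lost and 3 members were called. Hnrnpu also lost its call without c replicate 1, the c library with DRB or rhau_sko replicate 7, and Hnrnpd without the c library with DRB. With library size alone, which set the median difference of all genes at 0.25 instead of 0.07, 4 members were higher and 3 lower, and Hnrnpd, Hnrnpu and Srsf1 lost their calls. Oocyte markers differed between the experiments as well, 7 of 12 with a higher change in growing oocytes and 0 with a lower one, and their part in these differences was not tested.

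**Figure D3:**
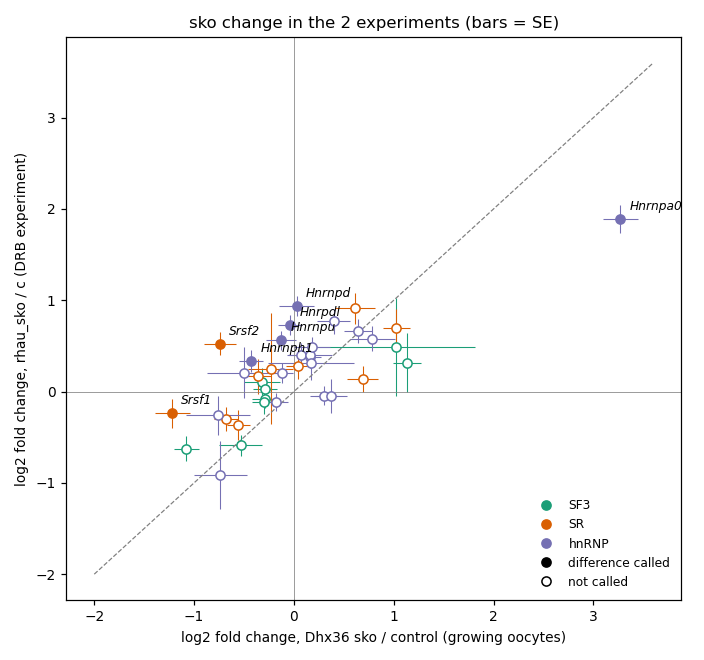
Log2 fold change of 38 splicing genes in Dhx36 sko growing oocytes (horizontal axis) and in rhau_sko of the DRB experiment (vertical axis), with SE as bars; the dashed line marks equal change. The 7 filled and named genes are those whose changes differed, and Hnrnpa0 stands alone at the upper right.

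Between the growing and DRB experiments 5 of the 7 members that rose in growing sko also rose in rhau_sko, where 14 rose. These were Hnrnpa0, Hnrnpab, Hnrnpr, Srsf6 and Srsf9. Of the 10 that fell in growing sko, 2 fell in rhau_sko (Sf3b2 and Sf3b5, the 2 that fell there) and 1, Srsf2, rose. Over all genes tested in rhau_sko 19.9% were called higher and 17.9% lower. The overlap of calls over all genes was not counted, so these counts are not a result about the splicing genes.

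DRB was compared with no DRB in the same 6 libraries, with genotype as a covariate. No member was called by edgeR (0 of 38), where 5 had an unadjusted p under 0.05. Over all genes 0.0126% were called, 0.00628% higher and 0.00628% lower. With no filter on low counts edgeR called 492 of 24431 genes and 0 members. DESeq2 called 537 of 15923 genes, 271 higher and 266 lower. Of the members it called 1, Sf3b5 (log2 fold change 0.39, adjusted p = 0.0299), whose edgeR value was 0.39 (SE 0.11, adjusted p = 0.203). The members' log2 fold changes ranged from -0.44 for Srsf6 to 0.84 for Srsf4, around a median of -0.04. Hnrnpc, for example, differed by 0.04 (SE 0.10) and Hnrnpa0 by -0.24 (SE 0.15), neither past the threshold.

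In the libraries labelled Trim21 and 3 h, 2 of 38 tested members rose and 0 fell. Over all 14191 genes tested 11.5% were called, 6.26% higher and 5.23% lower, and 5.26% of the members. The members' median log2 fold change was 0.00, against -0.01 over all genes. The members that rose are both hnRNPs of the A/B type. Hnrnpa3 had 23.6, 20.1 and 22.4 normalised CPM in the Trim21 libraries, against 9.30, 15.2 and 8.63 in the control libraries (log2 fold change 0.99, SE 0.22, adjusted p = 0.0103). Hnrnpa0 had 41.7, 44.7 and 48.0 normalised CPM in the Trim21 libraries, against 24.4, 32.4 and 21.3 in the control libraries (log2 fold change 0.78, SE 0.17, adjusted p = 0.00928). In both genes each Trim21 library lay above each control library. Leaving out control replicate 1 gave Hnrnpa3 an adjusted p of 0.0503, and leaving out Trim21 replicate 3 gave Hnrnpa0 one of 0.0573.

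Of the SF3 genes, Sf3b1 averaged 399 ± 15.7 normalised CPM with Trim21 and 422 ± 21.2 in controls (log2 fold change -0.08), and the SF3 genes ranged from -0.34 for Sf3b4 to 0.02 for Sf3b5. Among the SR genes, Srsf7 was closest to the threshold, with 63.0, 55.8 and 57.7 normalised CPM in the Trim21 libraries, against 74.0, 73.8 and 81.2 in the control libraries (log2 fold change -0.37, SE 0.12, adjusted p = 0.0605). It passed with DESeq2 (adjusted p = 0.0313) and without control replicate 2 (0.0391), and Srsf11 passed with no filter on low counts (0.0325). The others lay between -0.15 for Srsf1 and 0.53 for Srsf11. Hnrnpa1 averaged 94.1 ± 10.7 normalised CPM with Trim21 and 84.8 ± 3.61 in controls (log2 fold change 0.15, SE 0.12, adjusted p = 0.485), and Hnrnpk 285 ± 37.5 with Trim21 and 242 ± 21.5 in controls (log2 fold change 0.24, SE 0.12, adjusted p = 0.251). The other uncalled hnRNP genes ranged from -0.45 for Hnrnph2 to 0.22 for Hnrpll. In the other lists Cdc5l, a core protein of the Prp19 complex, fell by 2.90 on the log2 scale and Pcbp3, a relative of hnRNP K, by 1.31, while Syncrip rose by 1.55. Tissue-type regulators gave 5 higher and 1 lower of 20, hnRNPs under other symbols 1 higher and 1 lower of 18, the tri-snRNP list 0 higher and 3 lower of 34, and SR protein kinases 0 higher and 1 lower of 12. No gene of the SR-related, Sm and LSm, U1 and U2 or minor spliceosome lists was called there. The background over all genes tested was 6.26% higher and 5.23% lower.

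**Figure D4:**
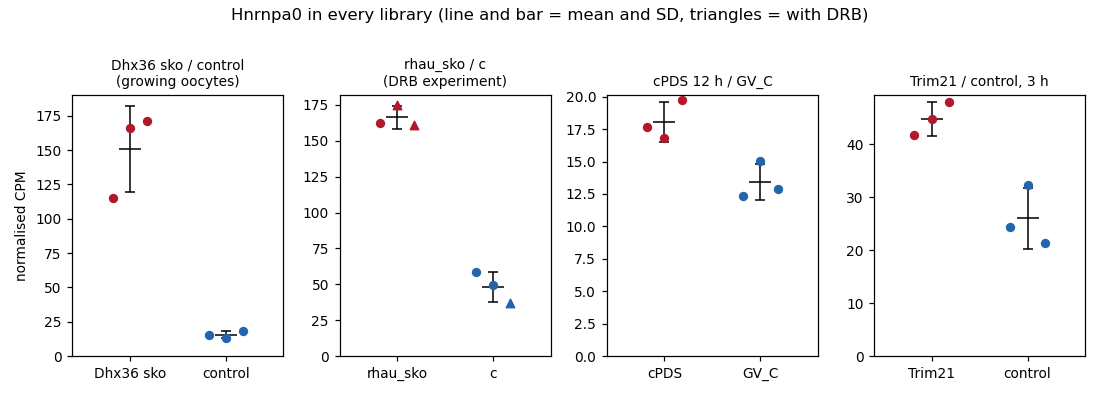
Normalised CPM of Hnrnpa0 in every library, with sko, cPDS or Trim21 at the left of each panel and its control at the right; the line and bar give the mean and SD, triangles mark libraries with DRB, and each panel has its own scale from 0. In all 4 panels the left libraries lie above the right ones.

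Hnrnpa0 was the only one of the 39 members called higher in all 4 experiments, by 9.65-fold in growing sko, 3.69-fold in rhau_sko, 1.35-fold with cPDS and 1.72-fold with Trim21. Per exon length it averaged 140.5 ± 28.2 TPM in growing sko oocytes and 12.4 ± 2.38 TPM in their controls (SD, n = 3 each). Its level was 11.7 ± 1.09 TPM in GV_C and 20.4 ± 4.31 TPM in Trim controls. Of the other members, 5 were tested in all 4 comparisons and called in none, Srsf12 was tested with cPDS alone and not called, and 8 were called with cPDS alone, all lower. Another 6 fell in growing sko and with cPDS, 5 rose in rhau_sko and fell with cPDS, and 4 rose in both sko experiments and fell with cPDS. Whether these patterns differ between genes was not tested, and the same patterns were not counted over all genes.

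**Figure D5:**
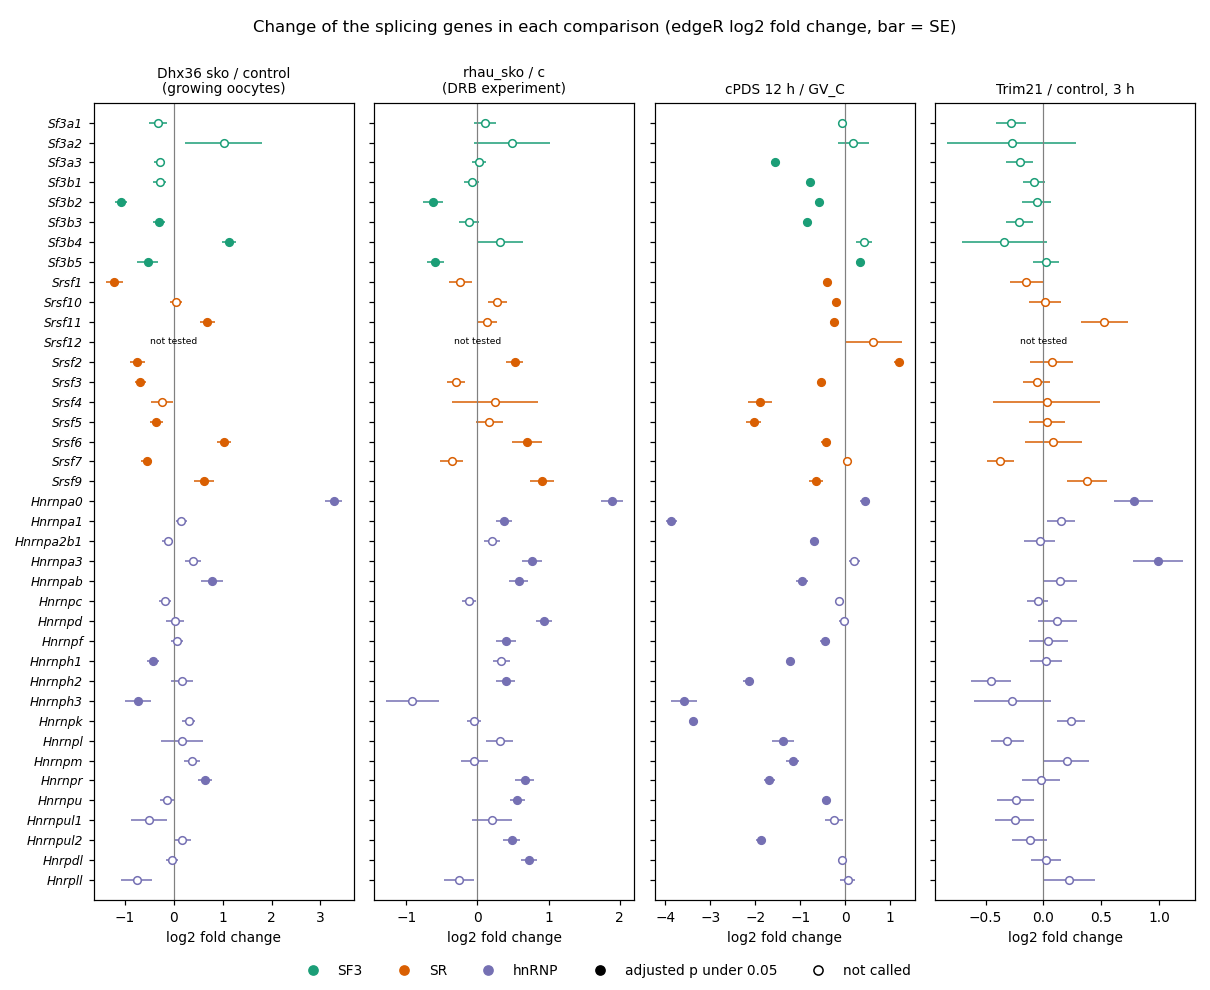
Log2 fold change (horizontal axis, SE as bars) of the 39 splicing genes in 4 comparisons, right of 0 where the sko, cPDS or Trim21 libraries were higher; filled points have an adjusted p under 0.05 and scales differ between panels. The cPDS panel has 25 filled points left of 0, and the Trim21 panel has 2 filled points in all.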

How the data were processed

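The counts of reads per gene were deposited by the authors without normalization, and per the file headers the tables carry featureCounts columns. Programs listed in the submitters' processing notes include featureCounts 2.0.1, STAR 2.5.2b, HISAT2 2.1.0, cutadapt 1.15 and fastp 0.21.0, with the build mm9; which program made which table, the strand setting and the treatment of multimapping reads are not given there. One table held the growing, DRB and GV experiments and another the Trim libraries, and each test stayed within a table. A further table repeated 20 columns of the first with 0 cells different. Used here were 24 libraries, of 55 samples in the series; the shallow pair held 129192 and 127927 counts.

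The test was edgeR's quasi-likelihood test (edgeR 4.0.16, R 4.3.3) with filterByExpr (minimum count 10), TMM factors and Benjamini-Hochberg adjustment at 0.05 over every gene passing the filter, after a check on simulated data. An SE is the absolute log2 change divided by the root of the F statistic. TPM came from the counts and the exon lengths in the tables. Each experiment was fitted on its own libraries, the DRB experiment with genotype and DRB as additive terms. DESeq2 1.42.0 and other scalings and filters were alternatives. The members, the other gene lists and the rule for named genes were chosen with earlier results of these data known. The rule named 20 listed members in every comparison and added the 5 largest increases and 5 largest decreases among called members averaging 4 or more in log2 CPM (with fewer than 10 such members, the 5 smallest p each way), and the 2 called genes of smallest p in each other list; the remaining members are named for completeness. The libraries used of a group differed by far more than sampling noise (chi-square per degree of freedom 7.26 to 75.15), so none was counted as a repeat. This does not show that they came from separate animals.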

Additional observations from a re-analysis of the deposited data

Results flagged for a closer look

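For 7 members the sko change in growing oocytes differed from that in the DRB experiment, by the interaction term of edgeR's model. The log2 difference, growing minus DRB experiment, was 1.41 for Hnrnpa0 (adjusted p = 6.19e-04), which had a log2 fold change of 3.27 in growing sko and 1.88 in rhau_sko. It was -1.24 for Srsf2 (adjusted p = 0.00101), with log2 fold changes of -0.74 and 0.52. For Srsf1 it was -0.96 (adjusted p = 0.0152), for Hnrnpd -0.89 (0.0154), for Hnrpdl -0.75 (0.00615), for Hnrnph1 -0.74 (0.00745) and for Hnrnpu -0.67 (0.0265). No group had the 4 libraries that a test for an outlying library needs.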

How the results depend on the processing

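The alternatives were library size alone, DESeq2's size factors, DESeq2's Wald test, no filter, a count minimum of 50, leaving out each library and, for the DRB experiment, the 2 shallow libraries and 1 term per group. Of 1940 values of named members under them, 1863 stayed on their side of the threshold, 45 lost a call and 32 gained one. No called value changed sign, whereas some uncalled values near 0 did, such as Hnrnpd with cPDS (-0.15 to 0.07 on the log2 scale) and Hnrnpa2b1 in growing sko (-0.17 to 0.06). Leaving out 1 library gave 13 to 22 called members for growing sko, 10 to 16 for rhau_sko, 0 for DRB, 26 to 30 for cPDS, 1 to 3 for Trim21 and 3 to 8 for the difference between experiments. With all 8 libraries of the DRB experiment 8 members were called in rhau_sko. DESeq2 called 1 member with DRB, where it called 537 of all 15923 genes. For the difference between experiments it called 11 members and 3022 of all 16655 genes. The cause was not tested. The cPDS and GV_C libraries, and the Trim21 and control libraries, share replicate numbers. Correlations of same-numbered deviations from group means were -0.059 to -0.033, and -0.049 to 0.091. With 3 libraries a group, these cannot decide whether the numbers pair libraries. With a replicate block 26 members were called with cPDS (Srsf10 had an adjusted p of 0.0568) and 2 with Trim21. Over all genes the block gave 7559 calls with cPDS and 1762 with Trim21, against 8191 and 1630 without it. Leaving out the 5 members with the most shared exon bases was chosen after seeing the data and gave 15 called members for growing sko, 15 for rhau_sko, 24 for cPDS, 2 for Trim21 and 7 for the difference. With 3 libraries a group, members with a large SE could pass the test on large differences only.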
